A study of Mus musculus with 96 samples.

Results

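The 16 cells sorted from the E11.5 mouse yolk sac as precursors of haematopoietic stem cells (pre-HSCs) were divided by whether their libraries held transcripts of the sorting gate. The sides were chosen by their own reads. A cell with 1 or more reads of Cdh5 or Procr was placed on the side with gate transcripts, and a cell with 0 reads of both genes on the side without them. There were 8 cells on each side, out of 16 yolk sac cells and 96 cells in all. The other cells were 48 E11.5 pre-HSCs from the aorta-gonad-mesonephros region (AGM) and fetal liver HSCs, 16 from E12.5 and 16 from E14.5. All were C57BL/6 embryonic cells, and no genetic change or treatment is named for any group. Yolk sac and AGM cells carried the same gate, which asked for surface CD144, EPCR and c-Kit and for no Ter119 or CD11b. The E12.5 liver gate left out Ter119 cells and took those with EPCR, Sca-1 and c-Kit, and the E14.5 gate replaced EPCR by CD150 with no CD48. The question addressed was which cell identity the cells without gate transcripts carry.

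Blood stem cells arise in the embryo from endothelial cells that line vessels and switch to a haematopoietic programme. Cells in transition carry vascular surface proteins together with the first blood proteins, and transcription factors such as Runx1, Gata2 and Gfi1 drive the switch. The yolk sac also makes earlier waves of blood, including primitive red cells, macrophages and progenitors that are not stem cells. CD144, or VE-cadherin, is the adhesion protein of endothelial junctions and is encoded by Cdh5. EPCR, the endothelial protein C receptor, is encoded by Procr and marks both endothelium and blood stem cells. In GRCm38 (mm10), the GENCODE annotation places Cdh5 on chromosome 8, bases 104101625 to 104144511, and Procr on chromosome 2, bases 155751117 to 155755471, both protein coding and on the plus strand. A surface protein can be present when its transcript is not read, so a count of 0 says nothing about the protein.

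Each cell was 1 library, and no animal or litter is named. The 16 yolk sac cells were therefore treated as 1 sample, no test between the sides was possible, and every difference is a description of these libraries. Levels are read counts scaled by each library's total to the usual unit, CPM, and a pooled level sums the reads of the 8 cells on a side. The cells with gate transcripts had 1246646 to 1922746 reads and those without had 845741 to 1558060. Genes detected per cell, meaning genes with a read, were 4746 to 10823 with gate transcripts (median 7498.5) and 2675 to 5776 without (median 4726). Cells 1, 2 and 3, all with gate transcripts, stood apart with 10823, 10727 and 9848 genes, and the 5 other cells on their side had 4746 to 7686 (median 6465). Wells with at least 9000 genes also occurred among AGM cells (4 of 48) and E12.5 cells (1 of 16). Thinning every cell to 690000 reads left the medians at 7249.5 and 4596.5 genes. The mitochondrial share of reads was 0.396% to 0.793% with gate transcripts and 0.388% to 2.04% without. It was highest in cells 8 (2.04%) and 12 (1.38%), which also had the fewest genes, 2675 and 3118. Because the number of genes per cell moved with the sides, its part in the differences below was not tested, and values without cells 1, 2 and 3 are given beside them.

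Reads of the gate genes chose the sides, so their levels are a description. Cdh5 had a read in 7 of 16 cells. Its levels were 9.36 CPM in cell 1, 25.3 in cell 2, 42.9 in cell 3, 26.9 in cell 4, 22.8 in cell 6, 0.581 in cell 7 and 67.6 in cell 15. Procr had a read in 6 cells, at 164.9 CPM in cell 1, 99.4 in cell 2, 225.7 in cell 3, 49.9 in cell 6, 0.802 in cell 9 and 142.3 in cell 15. Reads of both genes were present in 5 cells, 1, 2, 3, 6 and 15. Cells 7 and 9 lay just inside the rule, each with 1 read of a single gate gene. Cells 5, 8, 10, 11, 12, 13, 14 and 16 lay outside it with 0 reads of both, a share of 50% of yolk sac cells (exact Clopper-Pearson 95% interval 24.7% to 75.3%). Intervals here cover counting error only. Pooled reads on that side numbered 9675531, so 0 reads allows a pooled level of up to 0.31 CPM of each gene.

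**Figure D1:**
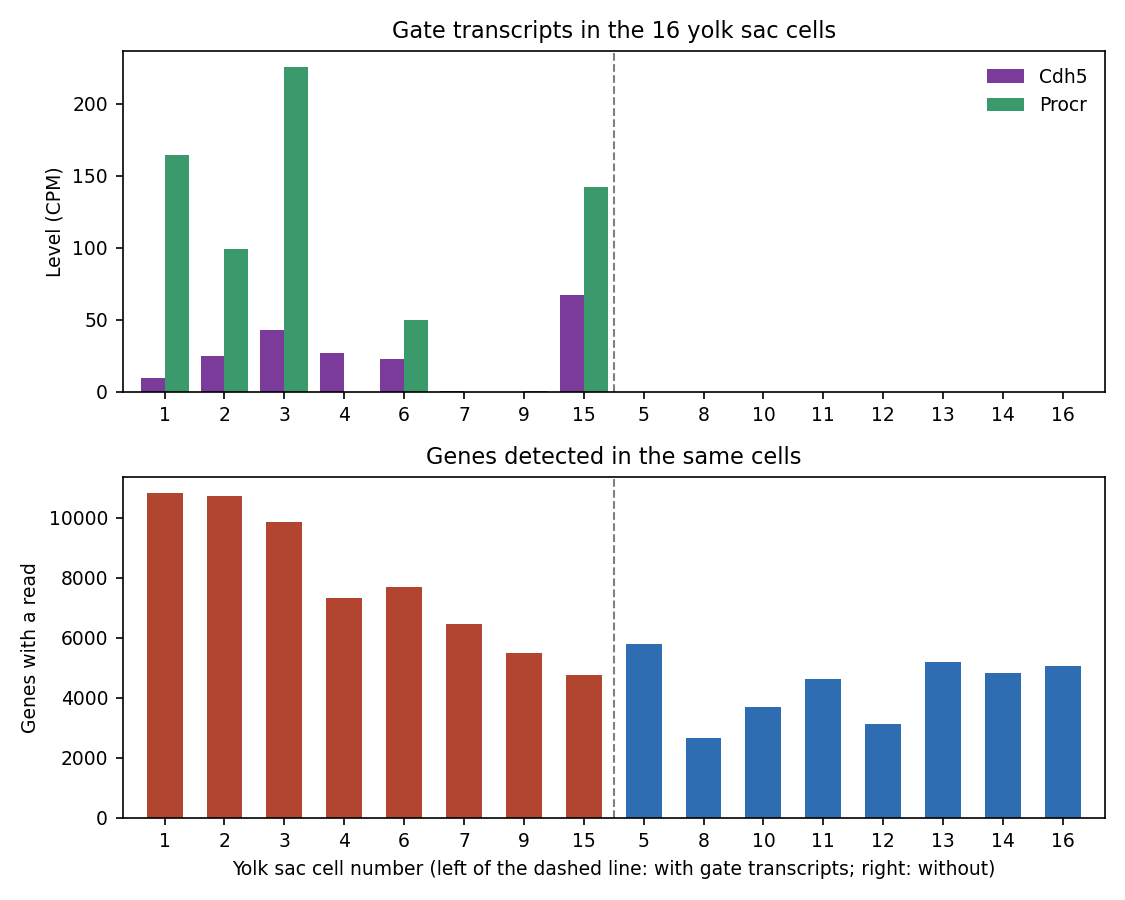
Levels of Cdh5 and Procr in CPM (upper bars) and the number of genes with a read (lower bars) in each of the 16 yolk sac cells, named by number, with the cells that have gate transcripts left of the dashed line. The bars of cells 7 and 9 are under 1 CPM, and cells 1, 2 and 3 have the most genes.

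Kit encodes the c-Kit receptor, the third positive marker of the gate, and was not used to choose the sides. Among the cells without gate transcripts it stood at 121 CPM in cell 5, 96.3 in cell 11, 231.6 in cell 12, 0.788 in cell 13 and 40.2 in cell 14, and it had 0 reads in cells 8, 10 and 16. With gate transcripts it ranged from 0 in cell 7 to 284 CPM in cell 4. The sides overlapped. Pooled Kit was 58.6 CPM without gate transcripts (exact Poisson 95% interval 53.9 to 63.6) and 134.2 CPM with them (127.9 to 140.7). Itgam, which encodes the excluded CD11b, had 1 read among the cells without gate transcripts, in cell 11, and 1.24 to 21.8 CPM in the 5 cells with gate transcripts that had a read.

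At the median, fewer endothelial genes were read per cell without gate transcripts than with them. The same held over all 19836 genes, with medians of 4726 and 7498.5. Of 33 listed endothelial genes, 6 to 13 had a read per cell without gate transcripts (median 8). With gate transcripts the number was 11 to 31 (median 17.5), and 11 to 20 (median 14) when cells 1, 2 and 3 were left out. The ranges overlapped at 11 to 13, where cells 5 and 11 from one side met cells 4 and 9 from the other. AGM cells had a median of 17 of these genes, E12.5 cells 10.5 and E14.5 cells 12. To set cells of like complexity side by side, AGM cells with 2675 to 5776 genes detected, the range of the cells without gate transcripts, were taken after the data had been seen. These were 28 of 48 AGM cells, with a median of 4967.5 genes, and they had 10 to 23 endothelial genes (median 15). The lowest of the 28 had 3486 genes. Yolk sac cells 8 (2675 genes) and 12 (3118), with 6 and 7 endothelial genes, thus had no AGM cell of like number. None of the 28 lacked both gate transcripts, with Cdh5 read in 25 and Procr in 24.

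**Figure D2:**
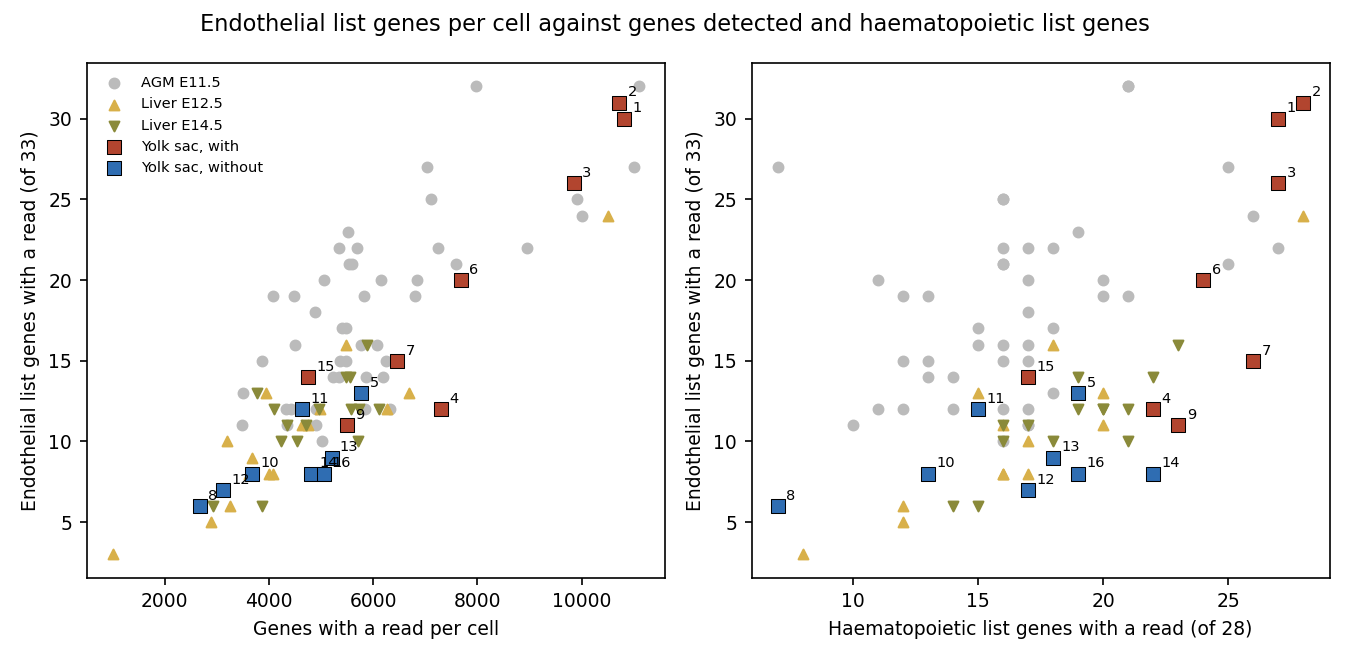
Number of the 33 endothelial list genes with a read in each of the 96 cells, against all genes with a read (left) and against the 28 haematopoietic list genes with a read (right); squares are yolk sac cells with their numbers and other symbols are AGM and liver cells. Yolk sac cells without gate transcripts lie at 6 to 13 endothelial genes, and AGM cells of like gene number at 10 to 23.

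Which endothelial genes had no read differed from cell to cell. Of the list, 15 of 33 genes (45.5%) had 0 reads in all 8 cells without gate transcripts, beside 51.3% of all genes in the table. The share of all genes includes those with no read on either side. With gate transcripts, 0 of the 33 genes lacked a read, beside 6010 of all 19834 genes. When cells 1, 2 and 3 were left out, 12 and 9237 lacked a read there. The 15 genes at 0 included Sox7, Sox17 and Sox18 (transcription factors of vascular identity), Nos3 (endothelial nitric oxide synthase), Robo4, Mmrn2 and Icam2. Icam2, an adhesion molecule of endothelial junctions, had 123 CPM in cell 1, 155.5 in cell 2, 128 in cell 3, 26.9 in cell 4, 242 in cell 6 and 113 in cell 15. It had 0 reads in cells 7 and 9, as did every cell without gate transcripts. Its pooled level was at least 331-fold higher with gate transcripts, taking 3 reads over the other side as the most that 0 reads allows. Among the 28 AGM cells of like gene number, 18 had a read of Icam2. For 12 of the 33 genes, including Sox7, Sox18, Robo4, Nos3 and Mmrn2, the only yolk sac reads came from cells 1, 2 and 3. The share of all genes in the table read only in these cells was smaller. Whether the high gene number of these cells set the share of the list was not tested.

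Other vascular genes were read less widely on the side without gate transcripts. Pecam1, which encodes CD31, stood at 34.02 CPM in cell 11, 22.4 in cell 12 and 44.9 in cell 13 and at 0 in the other cells without gate transcripts, and it was read in 7 of 8 cells with them, at 5.64 to 136 CPM. Tie1, a receptor of vessels, was read in 8 cells with gate transcripts (31.4 to 493.1 CPM) and in 3 without (0.679 to 184.6 CPM). Eng, a TGF-beta co-receptor, was read in 7 and 3 cells, with pooled levels of 43.3 and 2.38 CPM. Tek was read in 7 and 1 cells. In each of these genes at least 1 cell without gate transcripts had a level within the range of the other side.

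Some genes of the endothelial list were read widely on both sides. In 5 or more of the 8 cells without gate transcripts, 8 of 33 were read, beside 3275 of all 19834 genes. Egfl7, which encodes a secreted vascular protein and is also transcribed in blood progenitors, was read in all 16 cells, at 84.1 to 1235 CPM without gate transcripts and 138 to 1649 CPM with them. Ramp2, a calcitonin receptor-like co-receptor, was read in 6 of 8 cells on each side. Emcn, Esam, Ecscr, Adgrl4, Fli1 and Cd93 were each read in 5 of 8 cells without gate transcripts. The highest Plvap level of the 16 cells, 1213 CPM, was in cell 8, which had the fewest genes of all and 0 reads of Kit.

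The summed level of the list separated the sides less than the number of genes. It was 549 to 2527 CPM without gate transcripts (median 1521) and 611 to 3858 CPM with them (median 2702), and the latter median was 1341 CPM without cells 1, 2 and 3. The pooled ratio is the log2 of the level without over the level with gate transcripts after 1 CPM was added to each, and 12195 genes had the 10 reads over the 16 cells needed for it. The median over all of these was -0.52. Of the endothelial list, 31 of 33 genes met the minimum, with a median of -2.36, and 16 of the 31 were past 4-fold higher with gate transcripts against 20.5% of all genes. None was past 4-fold higher without, against 4.54% of all genes. Genes at 0 on one side met the minimum through the other side alone, so this median and count are partly set by the minimum. Over genes read on both sides the list median was -0.65 (18 genes), beside -0.095 for all such genes. Without cells 1, 2 and 3 the list median was -0.43 (all genes -0.18) over 19 genes, and 4 (21.1%) were past 4-fold higher with and 1 (5.26%) without gate transcripts, beside 19.7% and 9.87% of all genes. The 3 genes Eng, Cldn5 and Icam2 remained past it of the 16. With sides at 0 set to 3 reads the list median was -2.90.

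Arterial and Notch genes mark the vessel type from which intra-embryonic stem cells arise. Of 16 listed, cells without gate transcripts had 0 to 2 with a read (median 1), and cells with them 1 to 14 (median 5), or 1 to 8 (median 2) without cells 1, 2 and 3. AGM cells of like gene number had 1 to 6 (median 3). The high counts were in cell 1 (14 genes), cell 3 (10), cell 2 (8) and cell 6 (8), and the other 4 cells with gate transcripts had 1 or 2. Dll4, the arterial Notch ligand, Gja4, Gja5, Hey1, Jag1, Jag2 and Nrp1 were all at 0 reads without gate transcripts. Outside cells 1, 2 and 3, Dll4, Jag2 and Nrp1 were read in cell 6 alone. Hes1, a Notch target also used by other pathways, stood the other way, at 839 CPM in cell 10 and 388 in cell 12 against at most 52.9 CPM with gate transcripts. In all, 11 of the 16 genes (68.8%) had no read without gate transcripts, against 51.3% of all genes. With gate transcripts 1 of the 16 had no read, or 7 when cells 1, 2 and 3 were left out. The list median was -2.20 over 14 genes and -2.04 over 8 genes without cells 1, 2 and 3, values set largely by genes that met the minimum through the side with gate transcripts. Over the 5 genes read on both sides it turned to 0.030.

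Transcription factors of the endothelial-to-haematopoietic passage were present on both sides. Of 14 listed, 6 to 12 had a read per cell without gate transcripts (mean 9.62 ± 2.26, SD over 8 cells) and 9 to 14 with them (mean 11.9 ± 2.36). Cell 8 had the fewest, and AGM cells of like gene number had 6 to 13. Spi1, which encodes the myeloid and stem cell factor PU.1, was read in all 16 cells, at 93.7 to 909 CPM without and 140 to 755 CPM with gate transcripts. Runx1 was read in 7 of 8 cells without gate transcripts, at 10.2 CPM in cell 8 to 255 CPM in cell 13, and at 0 in cell 12. It was read in 8 of 8 cells with them, at 33.1 to 191.8 CPM, and the sides overlapped. Lmo2, Hhex and Ldb1 were likewise read in 7 of 8 cells without gate transcripts, and Myb, Gata2 and Etv6 in 6. Gfi1, a repressor of endothelial genes during the switch, was the only one of the list with 0 reads on that side, and it was read in cells 1, 2, 3 and 6. Its relative Gfi1b was read in 4 cells of each side and reached 1397 CPM in cell 12. The list median was 0.30, and 0.33 without cells 1, 2 and 3, but it turned to -0.10 when reads of Procr alone set the sides.

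Haematopoietic genes were read throughout the cells without gate transcripts. Of 28 listed genes, 7 to 22 had a read per cell (median 17.5), with the lowest count in cell 8, against 17 to 28 (median 25) with gate transcripts and 17 to 26 (median 23) without cells 1, 2 and 3. AGM cells of like gene number had 10 to 20 (median 16), E12.5 cells a median of 17 and E14.5 cells 19. Coro1a, an actin regulator of leukocytes, was read in all 16 cells, at 592 to 2431 CPM without and 452 to 2963 CPM with gate transcripts. Arhgdib, which encodes a GTPase regulator of blood cells, was at 534 to 3330 CPM without and 1218 to 2014 CPM with them. Laptm5 and Cd34 were also read in all 16 cells, and Cd34, a surface sialomucin of progenitors and vessels, ranged from 135 to 2212 CPM without gate transcripts. Rac2, a GTPase of blood cells, was read in 7 of 8 cells without gate transcripts, at 538 to 1886 CPM, and was at 0 in cell 8. The list median was -0.30, and -0.30 without cells 1, 2 and 3, beside -0.52 and -0.18 for all genes. The summed level was 5151 to 12224 CPM without and 7033 to 10376 CPM with gate transcripts.

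Some surface genes of blood cells were scarce on that side. Ptprc, which encodes the pan-leukocyte protein CD45, stood at 25.03 CPM in cell 11 and 10.6 in cell 14 and at 0 in the 6 other cells without gate transcripts. With gate transcripts it stood at 163.8, 54.5, 111, 92.2, 103, 43.6 and 10.4 CPM in cells 1, 2, 3, 4, 6, 7 and 9 and at 0 in cell 15. Itga2b, which encodes CD41, the early surface mark of embryonic blood cells, was read in 2 cells without gate transcripts (1.18 and 17.7 CPM) and in 7 with them (21.1 to 504 CPM). Nckap1l, part of the leukocyte actin machinery, was read in 1 and 7 cells, with pooled levels of 0.517 and 69.2 CPM. Over the whole list, 6 of 28 genes (21.4%) were past 4-fold higher with gate transcripts, a share near the 20.5% of all genes, and 0 the other way. Without cells 1, 2 and 3 the counts were 5 (17.9%) and 1, beside 19.7% and 9.87% of all genes.

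**Figure D3:**
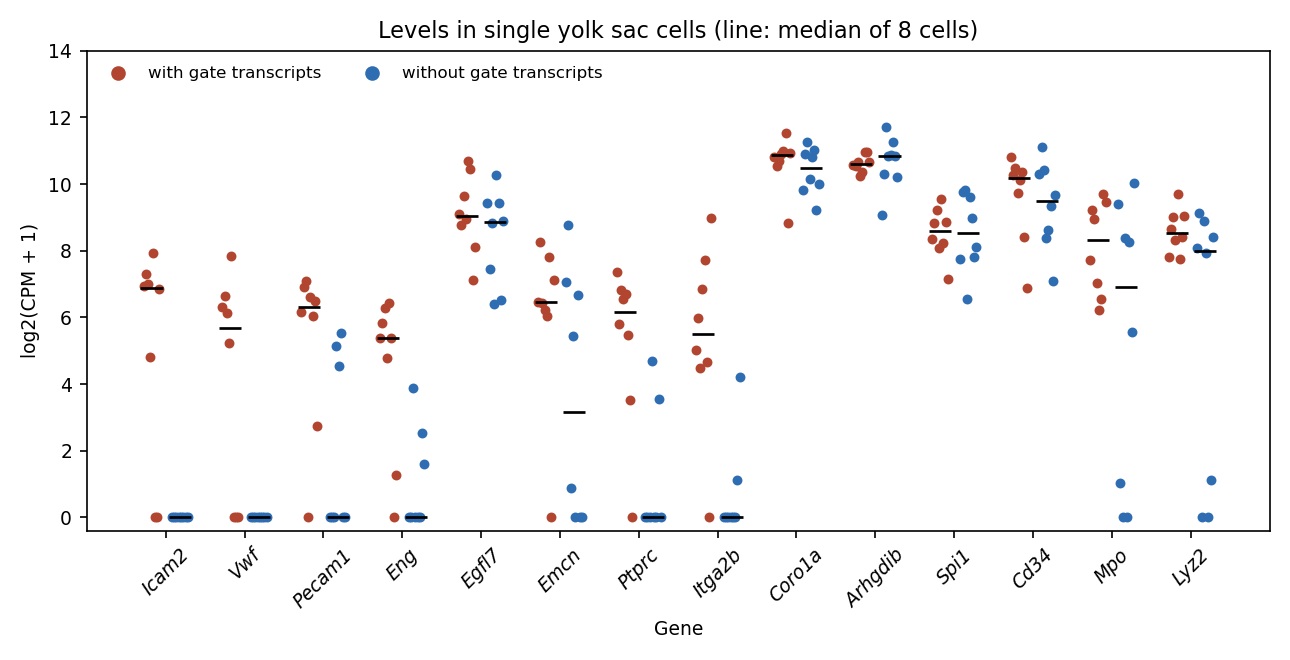
Levels of 14 genes as log2(CPM + 1) in each yolk sac cell, red with and blue without gate transcripts, with a line at the median of 8 cells. Icam2 and Vwf are at 0 in all blue points, whereas Coro1a, Arhgdib, Spi1, Cd34 and Egfl7 are above 0 in every cell of both colours.

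Genes associated with blood stem cells were spread unevenly over the cells without gate transcripts. Of 19 listed, 2 (cell 10) to 12 (cell 5) had a read per cell, with a median of 7, against 5 to 17 (median 14) with gate transcripts, 5 to 15 (median 10) without cells 1, 2 and 3, and 5 to 14 (median 10) in AGM cells of like gene number. Adgrg1, which encodes the adhesion receptor GPR56, was read in 7 of 8 cells without gate transcripts. Meis1 and Angpt1 were read in 6 and Mecom in 5. Meis1, a homeobox cofactor, was highest in cell 8 at 645 CPM. Hlf, a factor of stem cells, was read in cells 5, 10, 13 and 16 at 5.87, 192.9, 21.3 and 57.7 CPM. Ly6a, which encodes Sca-1, Slamf1, which encodes CD150, Hoxa10 and Prdm16 had 0 reads on that side. Ly6a was read in 6 of 8 cells with gate transcripts at 9.55 to 51.7 CPM, cells 7 and 9 included, and its pooled level was at least 55.4-fold higher there. The list median was -0.82, and -0.38 without cells 1, 2 and 3.

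Genes of differentiated lineages were mixed in the cells without gate transcripts, on a side where 51.3% of all genes had no read. Gata1, Klf1, Alas2 and Slc4a1 of the red cell lineage had 0 reads in all 8, as did 13 of the 21 erythroid genes in the table. Without cells 1, 2 and 3, 13 also had no read on the other side. The pooled median of the 11 genes with enough reads was 0.82, and 1.86 over 8 genes without cells 1, 2 and 3, higher without gate transcripts. Omitting single cells moved the first of these medians between -0.96 and 1.02, and it fell below 0 without cell 10 or 12. Of the 21 genes, 3 to 7 had a read per cell, and Car2 (carbonic anhydrase, read in all 8) and Nfe2 (read in 7) were also read in all 8 cells with gate transcripts. Globin transcripts stood out in cell 12, with the embryonic Hbb-y at 596 CPM, the alpha globin Hba-a1 at 319 and the embryonic Hba-x at 36.6. The embryonic Hbb-bh1 had 0 reads in cell 12 and the 7 other cells on its side, whereas cell 3, with gate transcripts, had Hbb-bh1 at 46.01 and Hbb-y at 85.8 CPM. Hbb-y was also read in cells 5, 8 and 10 (0.854 to 30.01 CPM). The erythroid summed level was 456 to 5487 CPM without and 695 to 1382 CPM with gate transcripts.

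C1qa, C1qb, C1qc, Adgre1, Cx3cr1, Mrc1 and Timd4, which mark macrophages, had 0 reads in the cells without gate transcripts. Of 15 macrophage genes, 11 (73.3%) had no read there, against 51.3% of all genes. On the other side 6 had no read, and 10 when cells 1, 2 and 3 were left out. Per cell without gate transcripts, 0 to 3 had a read, mostly Lyz2 (6 of 8 cells, up to 564 CPM). AGM cells of like gene number also had 0 to 3. Without gate transcripts, Csf1r was read in cell 5 alone at 15.003 CPM. Early granulocyte genes were present: Mpo, a granule peroxidase of myeloid progenitors, was read in 6 of 8 cells, from 1.02 CPM in cell 8 to 1044 CPM in cell 16, and Prtn3, a granule protease, in 6 of 8 cells at 93.9 to 457 CPM. Both were read in all 8 cells with gate transcripts, at 73.2 to 824 CPM for Mpo and 73.0 to 659 CPM for Prtn3, so the sides overlapped. Elane, Cebpe and Cebpa had 0 reads without gate transcripts and fewer than 10 reads over all 16 cells. Of the 11 granulocyte genes in the table, 2 had no read with gate transcripts. Without them 5 (45.5%) had none, against 51.3% of all genes. Fcgr3, an Fc receptor of myeloid cells, was at 0 in all 8 and was read in 7 of 8 cells with gate transcripts at 14.7 to 392 CPM.

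The remaining lineage lists are given more briefly. The share of genes with no read without gate transcripts was 53.8% in the platelet list, 58.8% in the lymphoid and 60% in the mast cell list. It was 76.5% in the mesenchymal and 54.5% in the visceral endoderm and hepatocyte list, beside 51.3% of all genes. Vwf, made by endothelium and platelets, had 0 reads without gate transcripts and was read in cells 1, 2, 3, 4 and 6 at 36.5 to 230 CPM. It was read in 21 of the 28 AGM cells of like gene number. Gp1ba, Gp1bb, Ppbp and Thbs1 of the platelet lineage were also at 0, whereas Gp9 was read in 5 of 8 cells without gate transcripts at 35.9 to 379 CPM. The platelet list median was -1.36, and 5 of 11 genes (45.5%) were past 4-fold higher with gate transcripts, against 20.5% of all genes. Without cells 1, 2 and 3 the median was -2.53, with 5 of 10 (50%) against 19.7%. None was past 4-fold the other way. Genes at 0 on one side met the minimum of reads through the other side alone. In the lymphoid list, Flt3, a receptor of multipotent progenitors, and Il2rg were read in 6 of 8 cells each, and Rag2, Ebf1, Bcl11b and Cd79a were at 0. Ccr7 was at 167.3 CPM in cell 10 and Il7r at 91.3 CPM in cell 5, each read in that cell alone on its side, and the lymphoid median was 0.31 over 9 genes. Cpa3 of mast cells, and Pdgfra, Pdgfrb, Col1a1 and Col3a1 of mesenchyme, were at 0 in all 8. Other genes of these lists were read: Slc18a2 of the mast cell list in 4 cells, up to 72.6 CPM in cell 10, Postn in 3 cells, up to 248 CPM in cell 10, and Dcn in cell 5 at 60.7 CPM. Of 22 visceral endoderm and hepatocyte genes, cell 5 had 8 with a read, including Apoa1 at 62.6 CPM, and the other 7 cells had 0 to 3. Afp was at 118 CPM in cell 14. Ttr, Apoa4 and Hnf4a were at 0 in all 8. With gate transcripts, cell 3 alone had 17 of the 22 genes, with Afp at 576 CPM.

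**Figure D4:**
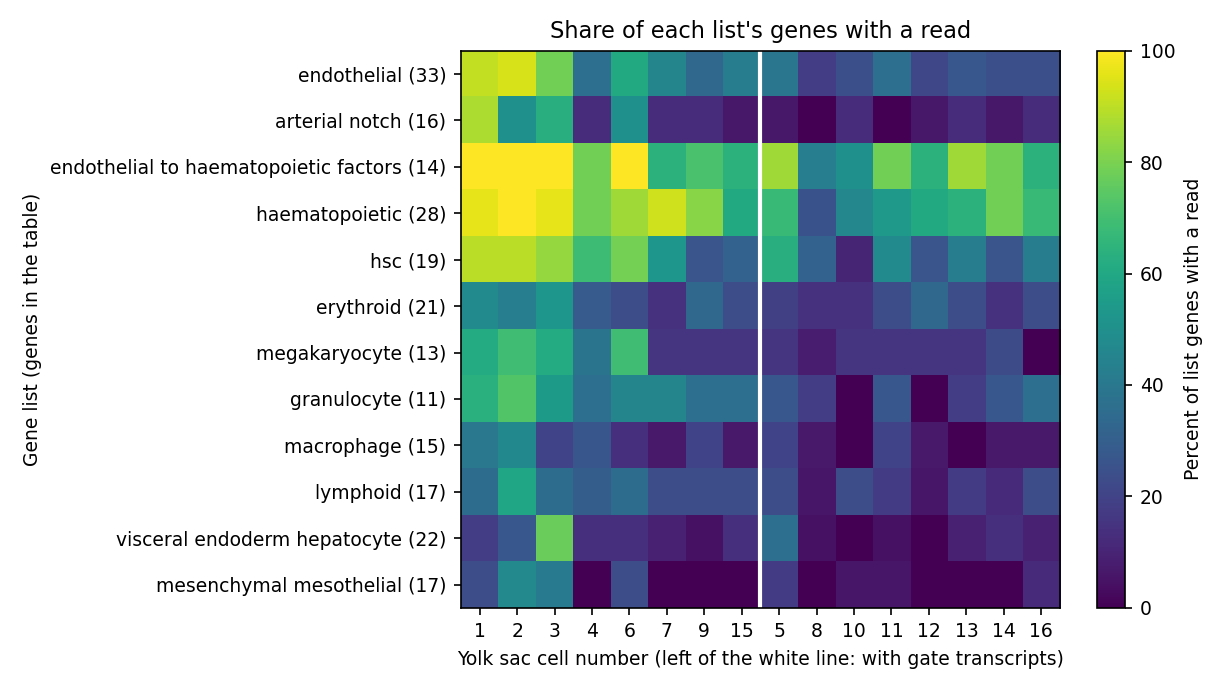
Percent of each list's genes with a read (colour) in each yolk sac cell (columns, cells with gate transcripts left of the white line), with the number of list genes in the table in parentheses. The endothelial and arterial rows are brightest in cells 1, 2, 3 and 6. On the right, the haematopoietic row and the row of transition factors are dimmest in cells 8 and 10.

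Cells on both sides carried transcripts of dividing cells. Of 20 S phase genes, 11 to 17 had a read per cell without gate transcripts (mean 14.4 ± 2.39, SD over 8 cells) and 16 to 20 with them (mean 19 ± 1.41). Mcm3, Mcm7, Pcna, Rrm2, Tyms and Slbp, which act in DNA replication, were read in all 8 cells without gate transcripts. Others were read less widely there: Mcm2 in 5 of 8 cells, Cdc6 in 4, and Ccne1 and Ung in 2. In pooled levels 17 of the 20 genes were lower without gate transcripts and 3 higher, beside 7787 and 4408 of all 12195 genes. The median summed level was 2886 CPM without and 7076 CPM with gate transcripts (7600 without cells 1, 2 and 3), with overlapping ranges. Cdt1, which licenses replication origins, had 0 reads in the 8 cells without gate transcripts and 91.5 to 221.8 CPM in 7 of 8 cells with them. Its pooled level was at least 472-fold higher with gate transcripts, and it was read in 18 of the 28 AGM cells of like gene number. The S phase list median was -0.89 and that of 21 genes of G2 and mitosis -0.23, and without cells 1, 2 and 3 they were -0.88 and -0.16. Of the G2 and mitosis genes, 5 to 19 had a read per cell without gate transcripts (median 17). With them it was 11 to 21 (median 20.5, or 18 without cells 1, 2 and 3). AGM cells of like gene number had 2 to 21 (median 10).

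Lists of other states are given by their medians, beside -0.52 for all genes. Immediate early and stress genes had a median of -0.03, class I MHC and interferon genes -0.19 and fetal growth genes, which include Lin28b and imprinted genes, -0.88. Without cells 1, 2 and 3 these were 0.57, -0.36 and -0.86. Hmga2 and Igf2, of the last list, were read in all 8 cells without gate transcripts, whereas Igf2bp3 was read in 2 of them and in 8 with gate transcripts. Heat shock genes Hspa1a and Hspa1b were read on the side without gate transcripts in cell 12 alone, at 54.4 and 100.4 CPM.

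Over all genes with enough reads, list genes included, detection was more often wider in the cells with gate transcripts. Of the 12195 genes, 1199 (9.83%) were read in at least 5 more cells with gate transcripts and 1 (0.0082%) in at least 5 more cells without. Omitting single cells moved the first count between 378 (without cell 1) and 1761, and none was computed without cells 1, 2 and 3, since 5 cells then face 8. That 1 gene was Usp50, which was chosen after its values were seen and had 25 reads in all on that side and 3 on the other. Of the endothelial list 3 of 31 genes, and of the haematopoietic list 5 of 28, were among the 1199. The 5 genes Wdhd1, Xpo5, Xrcc4, Tmem19 and Gk were read in all 8 cells with and in 0 of 8 without gate transcripts. Wdhd1, a replication fork protein, stood at 2.91 to 201.5 CPM with gate transcripts, and Xpo5, which exports microRNA precursors from the nucleus, at 8.08 to 134 CPM. The levels of Amdhd2, Fes (a tyrosine kinase of myeloid cells) and Cnp were also 0 in every cell without gate transcripts, with pooled levels of 117, 107 and 98.4 CPM with them. Tpp1, a lysosomal peptidase, was read in 8 cells with (28.9 to 280 CPM) and at 1 read each in cells 13 and 16 without.

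Fewer genes stood higher without gate transcripts. In pooled levels, 554 genes were past 4-fold higher without and 2494 higher with gate transcripts, and without cells 1, 2 and 3 the counts were 1054 and 2104. Over genes read on both sides they were 420 and 868 of 9083. Sugp1, a splicing-related protein, was read in 6 of 8 cells without gate transcripts, at 720 CPM in cell 8, 394 in cell 5, 200 in cell 10, 112 in cell 16, 101 in cell 13 and 40.2 in cell 14. It was read in 5 of 8 cells with them at no more than 45.2 CPM, and the sides overlapped. E2f3, a cell cycle transcription factor, was at 25.99 to 102 CPM in 5 cells without gate transcripts, and at most 25.5 CPM with them. Zmynd8 was read in 7 cells without gate transcripts at 6.30 to 341 CPM and in all 8 with them at 1.92 to 30.5 CPM. Pim2, a survival kinase, was highest in cells 12 (585 CPM) and 11 (227.8 CPM).

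Each yolk sac cell was also set beside the mean profiles of AGM, E12.5 and E14.5 cells, by Pearson correlation over the 1000 most variable genes of those 80 cells, without Cdh5 and Procr. These correlations run across genes, which are not independent, and stand as descriptions. Cells without gate transcripts had a median r of 0.25 with AGM, 0.17 with E12.5 and 0.21 with E14.5 cells, and cells with them 0.38, 0.20 and 0.27. The correlation with AGM minus the mean of both liver correlations was above 0 in 7 of 8 cells without gate transcripts, from -0.017 in cell 13 to 0.17 in cell 16 (median 0.084). It was above 0 in 8 of 8 cells with gate transcripts (0.021 to 0.41, median 0.19), and 0.11 at the median without cells 1, 2 and 3. The AGM mean was taken over 48 cells and each liver mean over 16, so a difference of 0 need not mean equal likeness. AGM cells, each set against the other AGM cells, lay at 0.0069 to 0.49 (median 0.23). All 16 E12.5 and 16 E14.5 cells were below 0, the highest at -0.033, so every cell without gate transcripts lay above every liver cell. Age differs between these groups as well as tissue and gate, so these cannot be told apart.

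**Figure D5:**
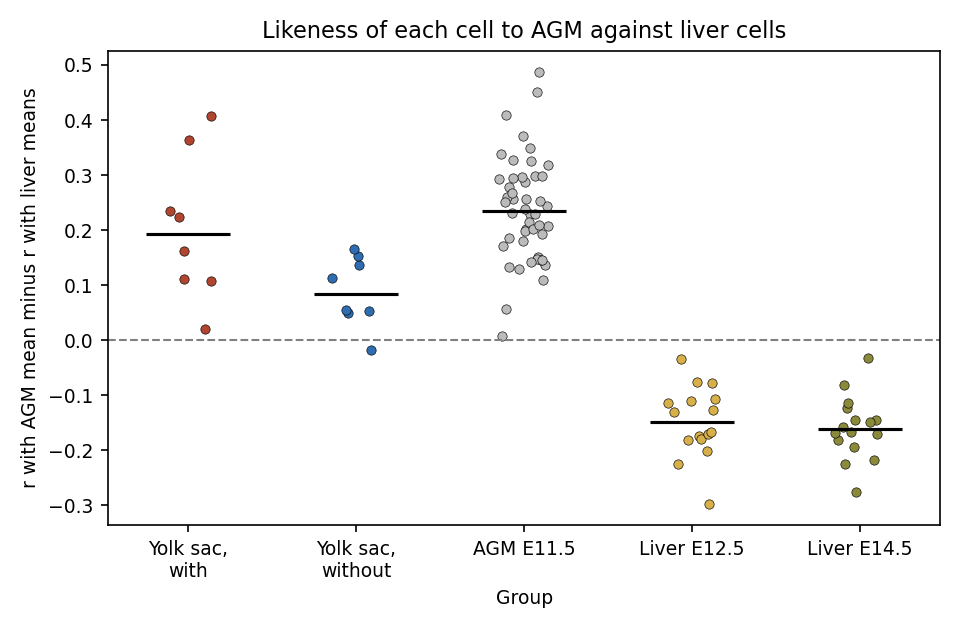
Correlation of each cell with the AGM mean profile minus the mean of its correlations with the E12.5 and E14.5 liver profiles, 1 point per cell by group, with a line at the median and a dashed line at 0. Yolk sac cells without gate transcripts lie between -0.017 and 0.17, above all liver cells and below the AGM median of 0.23.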

How the data were processed

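Single cells were sorted 1 per well and cDNA was made with a SMART-Seq kit, per the labels' protocols. The submitters' processing notes name FastQC, Trimmomatic 0.36, STAR, HTSeq and mm10; annotation and strand setting are not given in the sources used here. The authors deposited raw gene counts for 96 cells. Rows sharing a symbol (113 of 19949) were summed. Counts are reads without molecular identifiers, so intervals (exact Poisson and Clopper-Pearson, 95%) and the limit of 3 reads for a side at 0 cover counting error only. No doublet caller was run.

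Reads were scaled to CPM, and 1 CPM was added for log2 ratios of genes with at least 10 reads over the 16 yolk sac cells. No test between the sides was made. The script for the ratio was checked on simulated counts. Of 377 list entries 333 were in the table, and the others were not analysed here. Named genes came from Cdh5, Procr, Kit, Itgam, Ptprc and Ly6a, up to 6 per list and 10 per direction by ratio, and detection gaps of at least 6 cells, without predicted genes, pseudogenes, mitochondrial, ribosomal protein and sex-linked genes. Further list genes were chosen after their values were seen, for being at 0 or widely read. The side rule and gene lists were chosen with earlier results of these data known. Alternatives changed the side rule, scaling, added CPM, read minimum and the cells included. Python 3.11.15 with numpy 2.4.6, pandas 2.3.3 and scipy 1.17.1 was used.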

Additional observations from a re-analysis of the deposited data

Results flagged for a closer look

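Among 54 sets of 8 cells examined for a single cell far from the others, 9 values stood apart. The cutoff gives about 1 in 20 for independent, normally spread values. These sets held tied counts and sums from the same cells, so 9 of 54 cannot be set against that rate. Cell 3 had 17 visceral endoderm and hepatocyte genes with a read and a summed level of 1360 CPM, against at most 6 genes and 297 CPM in the other cells with gate transcripts. Cell 5 had 8 of these genes, against at most 3 in the other cells without gate transcripts. The summed erythroid level of cell 10 was 5487 CPM, of which Car2 gave 5279 CPM, against at most 2343 CPM in the other cells on its side. Cell 6 had 11 genes of G2 and mitosis with a read, against at least 18 in the other cells with gate transcripts. Cell 2 had 10 lymphoid genes and cell 1 had 3 mast cell genes, against at most 6 and 1 in the others. Cell 8 had 1 germ cell gene and cell 16 had 1 neural crest gene, where the other cells without gate transcripts had 0, and beside 7 values of 0 a single gene is enough to stand apart.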

How the results depend on the processing

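No paired analysis was possible because the cell numbers name no animal and no result comes from a test. Ratios were log2, without over with gate transcripts. With 10 CPM added, the endothelial median was -0.71, the arterial median -0.64, and 54 and 319 genes were past 4-fold higher without and with gate transcripts. A value of 3 reads for a side at 0, with no CPM added, gave medians of -2.90 and -3.47 and 849 genes higher without. Leaving out cells 1, 2 and 3 gave an endothelial median of -0.43 and 1054 genes higher without, and left no neural crest gene with enough reads. Over genes read on both sides, the endothelial median was -0.65, the arterial turned to 0.030, the mesenchymal to 0.14 and the germ cell (1 gene) to 2.25, and 868 genes were past 4-fold higher with gate transcripts; with cells 1, 2 and 3 also left out these were -0.36, 1.09 and, for mesenchymal genes, 1.66, with 822 genes. The restriction removes genes at 0 on one side. These last settings from the 3 reads onward, leaving out cells 7 and 9, the detection counts under at least 10 CPM of a gate gene and the use of AGM cells 1 to 16 alone were chosen after the data were seen. Thinned reads gave 3 genes read in at least 5 more cells without gate transcripts. When each cell was omitted in turn, the endothelial median lay between -2.58 and -1.93, the haematopoietic between -0.44 and -0.20 and the arterial between -2.67 and -2.15. The count of genes read in at least 5 more cells with gate transcripts lay between 378 and 1761. It fell below the reported 1199 by over 1.5 times without any 1 of cells 1, 2, 3, 4, 6, 7, 9 or 15, a side then having 1 cell fewer. The count without gate transcripts lay between 0 and 2. Several medians changed sign, and the cause was not tested. With Procr alone setting the sides they were -0.10 for transition factors, 1.15 for germ cell and 0.23 for G2 and mitosis genes. With at least 10 CPM of either gate gene they were 1.21 for germ cell and 0.15 for MHC and interferon genes. Erythroid genes gave -0.48 with no minimum on reads, and granulocyte genes 0.048 without cells 7 and 9. Without cells 1, 2 and 3, visceral endoderm genes gave 2.27 and mesenchymal genes 1.58. Omitting single cells moved the visceral endoderm median between -1.45 and 1.65 (above 0 without cell 3), the erythroid between -0.96 and 1.02 (below 0 without cell 10 or 12) and the lymphoid between -0.22 and 0.47 (below 0 without cell 10 or 13).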
